A study of Mus musculus with 4 samples.

Results

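Retnlg/Mmp8-positive neutrophils are neutrophil barcodes of mouse bone marrow that carry RNA of Retnlg (resistin-like gamma, a small secreted protein of neutrophils) or Mmp8 (neutrophil collagenase). A barcode was a member if it held 500 or more detected genes and 1000 or more gene UMIs, with mitochondrial genes giving 10% or less, and passed 2 gene thresholds. Per 10000 gene UMIs, the sum of S100a8, S100a9, Ngp, Camp, Ltf and Lcn2 had to reach 200 and the sum of Retnlg and Mmp8 had to reach 5. The rule found 668 members among 19758 filtered barcodes of 3 libraries: 130 of 7768 in the control library, 33 of 6341 in the library labelled Mll3 deleted and 505 of 5649 in the library labelled Mll4 deleted. The latter 2 are called the Mll3-label and Mll4-label library. The working label of these cells is late neutrophils. Members with much Retnlg and Mmp8 had more RNA of late maturation genes and less of division genes than members near the threshold. Primary granule genes as a list had no common direction there across the libraries. Members as a whole had less primary granule RNA than neutrophil barcodes under the Retnlg and Mmp8 threshold, which follows in part from the rule. The data thus go with that label only in part, and the members are called here by their defining genes. Measured values of the 8 rule genes chose the members, and their levels are given only as a description.

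The series has 1 library in each of 4 groups: control, Mll3 deleted, Mll4 deleted, and both genes deleted. All 4 hold Kit+ CD45.2+ cells of mouse bone marrow taken 10 weeks after transplantation. Cells were stained with 13 barcoded surface antibodies and 2 hashtag antibodies and run on the 10x 3' platform. Mll3 (Kmt2c) and Mll4 (Kmt2d) encode related histone H3 lysine 4 methyltransferases that act at enhancers. The strain, the age at transplantation, the driver of the deletion and the number of animals per library are not given in the sources used here. With 1 library per group, no test across samples was possible, and each comparison is between libraries, not conditions. All intervals are 95% intervals that cover counting error only. They are exact, except those of ratios of shares, which combine the exact limits of both shares.

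Neutrophils arise in the marrow from granulocyte-monocyte progenitors. Promyelocytes fill primary granules with Elane, Prtn3, Mpo and Ctsg. Myelocytes and metamyelocytes then fill secondary granules with proteins such as Ltf, Camp, Ngp and Lcn2, under control of Cebpe, and leave the cell cycle. Band and segmented cells fill tertiary granules with gelatinases such as Mmp9, gain Cxcr2, the chemokine receptor that draws them out of the marrow, and express the surface antigen Ly6G. Retnlg and Mmp8 RNA appear late in this series.

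The promoters of 5 genes are shown because their RNA marks both ends of the range described below: Retnlg and Mmp8 define the members, Cxcr2 was higher, and Fcnb and Chil3 were lower, in members with more Retnlg and Mmp8. Each RefSeq sequence (build GRCm38.p6) runs 5' to 3' on the gene's strand from 250 to 11 bases before the annotated start, 240 bases in all. Capitals mark matches to the C/EBP letters TTNNGNAA or the PU.1 letters GAGGAA on either strand, and no marked pair overlaps.
Retnlg: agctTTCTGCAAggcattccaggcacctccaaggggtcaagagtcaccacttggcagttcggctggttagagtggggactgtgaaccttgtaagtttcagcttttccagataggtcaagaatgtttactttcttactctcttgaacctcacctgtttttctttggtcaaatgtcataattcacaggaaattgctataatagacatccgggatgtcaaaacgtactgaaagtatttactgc
Mmp8: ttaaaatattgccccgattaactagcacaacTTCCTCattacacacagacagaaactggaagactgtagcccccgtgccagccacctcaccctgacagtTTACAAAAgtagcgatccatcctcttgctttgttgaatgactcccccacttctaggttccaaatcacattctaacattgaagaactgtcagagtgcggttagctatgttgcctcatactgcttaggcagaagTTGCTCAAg
Cxcr2: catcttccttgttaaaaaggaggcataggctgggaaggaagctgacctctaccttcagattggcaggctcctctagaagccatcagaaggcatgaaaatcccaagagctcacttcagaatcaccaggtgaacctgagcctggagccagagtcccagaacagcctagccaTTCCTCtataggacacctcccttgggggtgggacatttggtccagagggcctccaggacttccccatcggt
Fcnb: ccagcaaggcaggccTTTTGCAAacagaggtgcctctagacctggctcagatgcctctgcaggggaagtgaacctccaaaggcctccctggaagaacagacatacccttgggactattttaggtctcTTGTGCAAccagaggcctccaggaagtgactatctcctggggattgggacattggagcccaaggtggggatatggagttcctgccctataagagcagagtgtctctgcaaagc
Chil3: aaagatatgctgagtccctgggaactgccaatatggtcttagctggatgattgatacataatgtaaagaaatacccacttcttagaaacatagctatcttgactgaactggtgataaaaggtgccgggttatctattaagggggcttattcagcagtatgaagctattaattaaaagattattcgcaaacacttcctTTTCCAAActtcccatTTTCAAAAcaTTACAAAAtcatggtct
The Retnlg stretch lies at chr16:48872358-48872597 on the plus strand and holds 1 C/EBP match, 246 bases before the start. The Mmp8 stretch (chr9:7558179-7558418, plus strand) holds 2 C/EBP matches, 151 and 19 bases before the start, and 1 PU.1 match at 219. The Cxcr2 stretch (chr1:74153744-74153983, plus strand) holds no C/EBP match and 1 PU.1 match, 81 bases before the start. The Fcnb stretch (chr2:28084889-28085128, minus strand) holds 2 C/EBP matches, at 235 and 123. The Chil3 stretch (chr3:106167575-106167814, minus strand) holds 3 C/EBP matches, all within 53 bases of the start. Among all 32851 promoters of this length, 36.0% hold the C/EBP letters and 22.3% the PU.1 letters, so a match is a description of the letters and not a site.

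The libraries differed in ways that bear on every comparison. Filtered barcodes had a median of 16052.5 gene UMIs in the control library, 17522 in the Mll3-label and 5221 in the Mll4-label library. Members had fewer: a median of 8894, 7058 and 3794 UMIs, which added up to 1267057, 280054 and 2440259 UMIs. Thinned to 2000 UMIs, they had nearly the same number of genes, a median of 784, 785 and 764. Xist, the RNA of the inactive X chromosome, had no UMI in members of the Mll4-label library, where the Y-linked gene Ddx3y was at 33.2 CPM (UMI counts of a gene per 1000000 gene UMIs, both summed over members). Members of the control and Mll3-label libraries had Xist and no Ddx3y, so the sex of the cells and the Mll4 label cannot be told apart. Kmt2c was at 81.3 CPM in control members, 89.3 in those labelled Mll3 deleted and 69.7 in those labelled Mll4 deleted. In all other barcodes outside the neutrophil threshold, Kmt2c was lower in the Mll3-label library (24.7 CPM) than in control (45.7 CPM). Kmt2d was at 45.0, 42.8 and 28.3 CPM in members. The 3' counts need not fall in the deleted part of either gene and check neither label. Pairs of libraries shared 9 to 24 barcode sequences, and none was a member in both libraries of a pair.

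The members' share of filtered barcodes was 1.67% (1.40 to 1.98%) in the control library. It was 0.520% (0.358 to 0.730%) in the Mll3-label library and 8.94% (8.21 to 9.71%) in the Mll4-label library. On the log2 scale the ratio to control was -1.69 (-2.28 to -1.13) and 2.42 (2.14 to 2.70). The share was lowest in the Mll3-label and highest in the Mll4-label library, and the 3 counting intervals did not overlap. All barcodes past the first gene threshold, called neutrophil barcodes here, made up 26.2%, 20.2% and 53.2% of the filtered barcodes. Among neutrophil barcodes alone, members were 6.39% (5.37 to 7.55%), 2.58% (1.78 to 3.60%) and 16.8% (15.5 to 18.2%). Of barcodes under the first gene threshold, 1 of 5735, 3 of 5062 and 4 of 2643 reached 5 Retnlg and Mmp8 UMIs per 10000. In the library labelled with both deletions, 8 of 7408 filtered barcodes met the same thresholds, and only 25 were neutrophil barcodes.

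The 2 hashtags gave a split within each library, whose meaning the labels do not give. In the control library members were 1.69% of Hashtag1 and 1.77% of Hashtag2 barcodes. In the Mll3-label library they were 0.184% (6 members) and 1.02% (27 members). In the Mll4-label library they were 5.36% and 11.6%. Both hashtags were below both of control's in the Mll3-label library and above them in the Mll4-label library, but the hashtags of each of these 2 libraries differed from each other by more than their counting intervals. In the Mll4-label library 12.1% of members were assigned to neither hashtag, against 5.74% of its filtered barcodes.

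**Figure D1:**
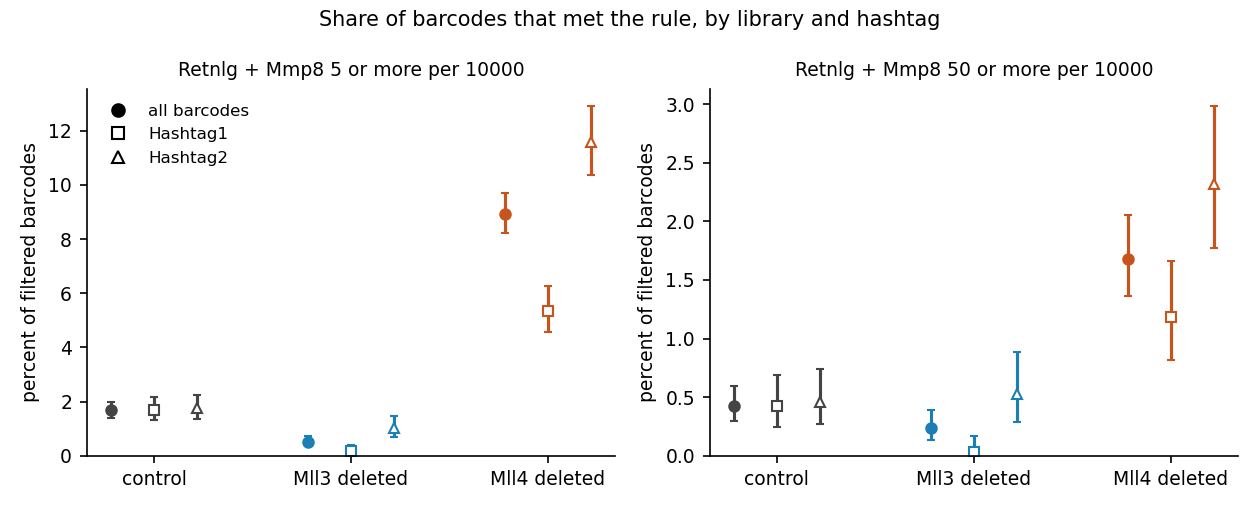
Members as percent of filtered barcodes (y axis) by library, for all barcodes, Hashtag1 and Hashtag2, with exact 95% counting intervals; one panel per Retnlg and Mmp8 level. The Mll4-label library is highest in each panel, and its hashtags (5.36% and 11.6% of barcodes for all members) lie apart.

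Depth bears on a threshold of 5 per 10000. One UMI is enough for it in a barcode of 2000 UMIs, and 2 or fewer UMIs made 53 of 505 members in the Mll4-label library (10.5%), 7 in control (5.38%) and none in the Mll3-label library. Members at 50 or more per 10000 are less open to this. They were 0.425% of filtered barcodes in the control library (33 barcodes), 0.237% in the Mll3-label library (15) and 1.68% in the Mll4-label library (95). The log2 ratio to control at that level was 1.99 (1.41 to 2.59) for the Mll4-label library and -0.84 (-1.81 to 0.05) for the Mll3-label library, whose interval includes 0. With all barcodes thinned to 2000 UMIs and a threshold of 20, the shares were 0.669%, 0.342% and 3.89%. The order of the libraries was the same in each of these counts. The cells were also gated on Kit, and members carried less CD117 (the Kit protein) than other barcodes did, so the gate can set these shares.

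Some members lay close to the threshold. Just inside it, the lowest Retnlg and Mmp8 sums were 5.02, 5.02 and 5.04 per 10000. Just outside it, the highest were 4.96, 4.82 and 4.99. Between 4 and 5 lay 34, 7 and 91 neutrophil barcodes, and between 5 and 6 lay 29, 4 and 53 members. On the first threshold the lowest members were at 322, 808 and 1042 per 10000, and the highest barcodes past the second threshold alone were at 77.7, 139 and 105.

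The 2 defining genes contributed differently in the libraries. Retnlg was at 3326 CPM in control members, 5406 in Mll3-label and 1691 in Mll4-label members. Mmp8 was at 739, 1607 and 885 CPM. Retnlg was thus lowest, and Mmp8 close to control, in the Mll4-label library. Members with no Mmp8 UMI were 50% in control, 27.3% in the Mll3-label and 29.3% in the Mll4-label library, and members with no Retnlg UMI were 2.31%, 6.06% and 13.1%. Neutrophil barcodes below the threshold had Mmp8 at 4.49, 1.44 and 19.3 CPM and Retnlg at 69.0, 32.9 and 63.3 CPM. The median sum of both genes per member was 10.2 per 10000 in control, 39.2 in the Mll3-label and 14.9 in the Mll4-label library. Members at 50 or more made up 25.4%, 45.5% and 18.8% of all members. These values follow from the rule and are a description.

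**Figure D2:**
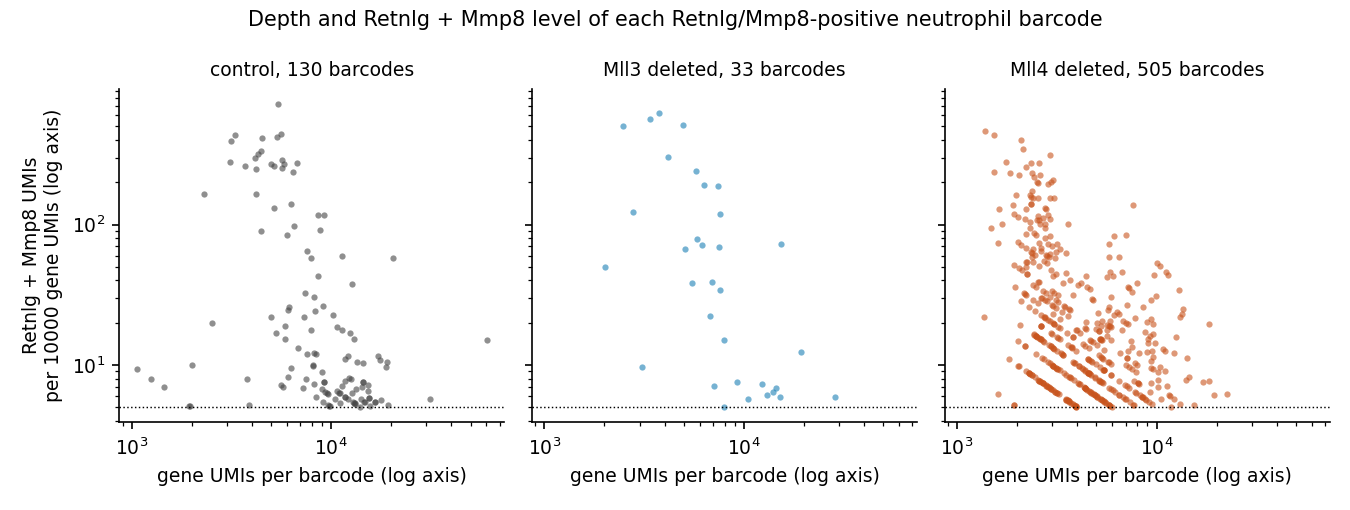
Each point is 1 member of a library, by its sum of Retnlg and Mmp8 per 10000 gene UMIs and its total gene UMIs. Members of the Mll4-label library lie at lower totals (median 3794 UMIs) than those of control (median 8894 UMIs).

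Members were then grouped by their sum of Retnlg and Mmp8 per 10000: 5 to under 10 (65 control, 11 Mll3-label and 186 Mll4-label members), 10 to under 20 (21, 2 and 129), 20 to under 50 (11, 5 and 95), and 50 or more (33, 15 and 95). Levels are CPM over the summed members of a group, so deep members weigh most. In the Mll3-label library the deepest member held 28709 of the 135580 UMIs of the first group. In its last group the deepest held 15356 of 88505. In control the deepest member held 60368 of the 271751 UMIs of the group at 10 to under 20. On the first gene threshold that member was at 322 per 10000, the lowest in control, where the median was 3623. It is part of every sum over all control members. Genes of late neutrophils were higher, and genes of dividing cells lower, in the group at 50 or more in each of the 3 libraries. Of the list of 25 late maturation genes found in the files, 18, 14 and 18 could be compared between the first and the last group. In control 14 of the 18 were higher by at least 2-fold, where the same held for 7.33% of all 3766 genes compared. In the Mll3-label library 12 of 14 were (12.6% of 920 genes), and in the Mll4-label library 12 of 18 (3.56% of 5000 genes). A gene was compared if it had 20 counts in either group, so a list gene could enter through the last group alone. The counts and medians of the list are therefore a description. The list's median log2 ratio was 1.71, 1.70 and 1.28, beside -0.29, -0.14 and -0.35 for all genes. Over the 916 genes compared in all 3 libraries, 48 were higher and 111 lower by 2-fold in each. Depth ran along the same range, since the median member had 11098, 12270 and 4758 UMIs in the first group and 5441, 5765 and 2532 in the last. The part of depth in these ratios was not tested.

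Mmp9, the gelatinase of tertiary granules, went from 227 to 2556 CPM between the first and the last group in control. It went from 317 to 2215 CPM in the Mll3-label and from 314 to 2569 CPM in the Mll4-label library. Mmp9 was higher in the last group in each library, at levels near each other. Cxcr2 went from 52.4 to 519 CPM in control, from 22.1 to 576 in the Mll3-label and from 47.9 to 658 in the Mll4-label library. Fpr1, a receptor for bacterial formyl peptides, went from 9.92 to 150, from 14.8 to 147 and from 16.0 to 135 CPM. S100a6, a calcium-binding protein, went from 663 to 5676, from 162 to 3582 and from 858 to 4809 CPM. All 4 genes were thus many-fold higher in members with the most Retnlg and Mmp8. Adam8, a cell-surface metalloproteinase of leukocytes, was at 275, 237 and 143 CPM in the last group, against 18.4, 7.38 and 14.1 CPM in the first. Mxd1, a MYC antagonist linked to granulocyte differentiation, was at 754, 588 and 848 CPM in the last group, against 183, 184 and 347 CPM.

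Ly6g and Csf3r were past 2-fold in the first 2 libraries only. Ly6g went from 214 to 814 CPM in control and from 369 to 1186 CPM in the Mll3-label library. In the Mll4-label library it went from 183 to 311 CPM. Csf3r, the receptor for G-CSF, the growth factor of neutrophils, was at 255, 305 and 168 CPM in the last group, against 79.3, 73.8 and 85.5 CPM in the first. Cebpb, a transcription factor of mature and emergency granulopoiesis, was at 544, 497 and 245 CPM in the last group and at 171, 177 and 93.0 CPM in the first. In the last group all 3 genes were lowest in the Mll4-label library.

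**Figure D3:**
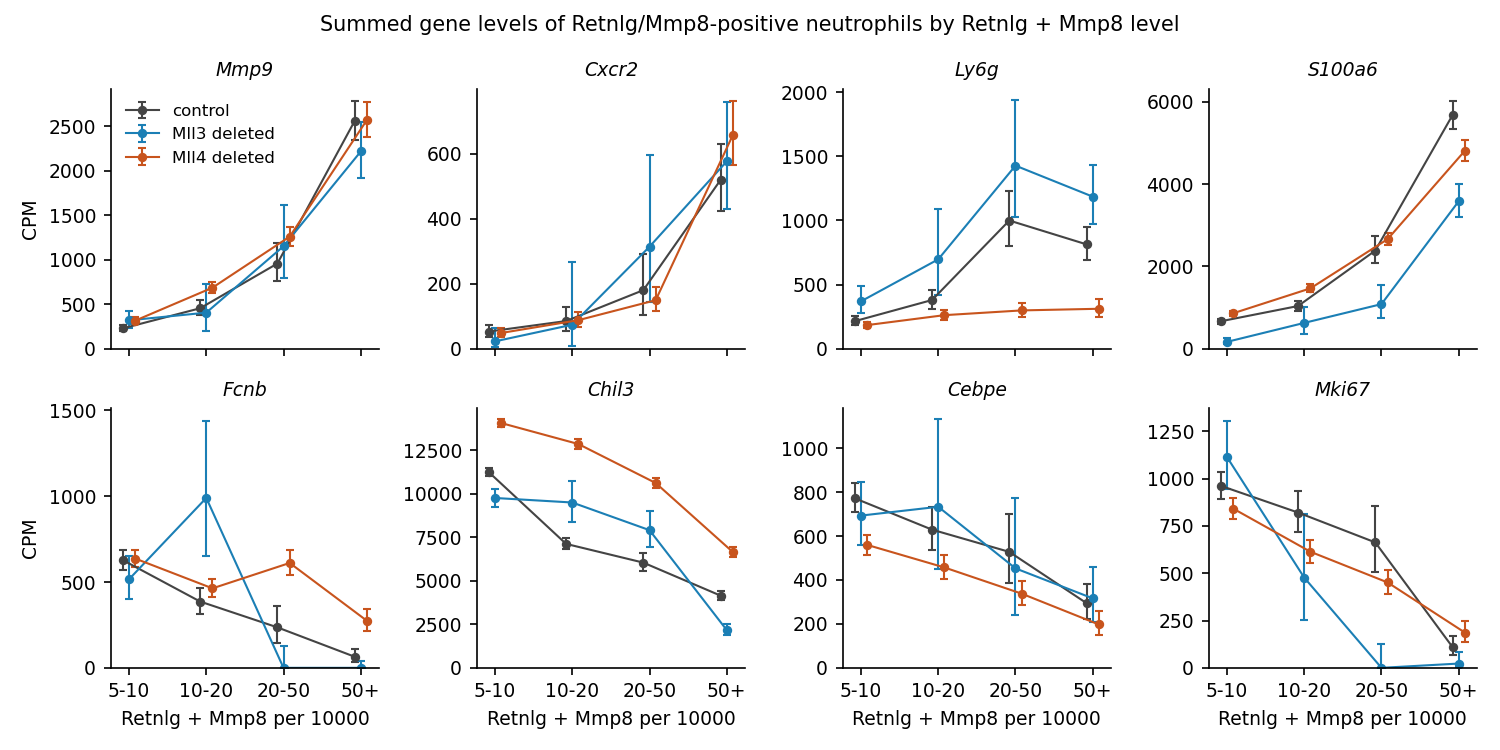
Summed CPM (y axis, each gene on its own scale) of 8 genes in members grouped by Retnlg and Mmp8 per 10000 gene UMIs (x axis), with exact 95% counting intervals, 1 line per library. Mmp9, Cxcr2, Ly6g and S100a6 end higher than they start, and Fcnb, Chil3, Cebpe and Mki67 end lower; the middle groups of the Mll3-label library hold 2 and 5 members.

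Proliferation genes ran the other way. Mki67, a protein of dividing cells, went from 962 to 110 CPM in control, from 1114 to 22.6 in the Mll3-label and from 842 to 186 in the Mll4-label library. Top2a, which untangles DNA before division, went from 880 to 135, from 878 to 56.5 and from 840 to 219 CPM. Both genes were several-fold lower in the last group. Of the 20 G2/M genes listed, all 20 were lower by at least 2-fold in control, where 24% of all genes were. All 14 that could be compared were lower in the Mll3-label library (23.8% of all genes), and all 20 in the Mll4-label library (23% of all genes). Summed, the 20 genes went from 5850 to 814 CPM, from 5318 to 282 and from 5158 to 932 CPM. Of S phase genes, 11 of 14, 5 of 5 and 16 of 17 were lower by 2-fold. Genes of both lists could enter by 20 counts in the first group alone. Their counts are thus a description, and those of the Mll3-label library carry no weight. The summed levels do not depend on that minimum. In neutrophil barcodes below the threshold Mki67 stood at 933, 837 and 964 CPM, near its level in the first group. The same did not hold for Elane, given further on. The group near the threshold, which holds 50%, 33.3% and 36.8% of the members, thus had Mki67 at about the level of barcodes below the threshold, which the label late neutrophils does not describe.

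Genes of the secondary granule stage were mixed along this range. Fcnb, the ficolin of earlier neutrophil stages, was at 628 CPM in the first and 64.9 CPM in the last group of control. It was at 516 CPM and without a UMI in the Mll3-label library, and at 637 and 274 CPM in the Mll4-label library. Chil3, a chitinase-like protein of immature neutrophils, was at 11240 and 4148, 9758 and 2169, and 14062 and 6648 CPM. Both were lower in the last group of each library. Cebpe, the transcription factor of secondary granule genes, was at 772 and 295, 693 and 316, and 560 and 197 CPM. In contrast Wfdc21, a whey acidic protein family member, was at 3031 and 3614 CPM in control and Cd177, a surface glycoprotein of neutrophils, at 965 and 1253 CPM. Of 12 secondary granule genes compared in control, 2 were higher and 2 lower by 2-fold, beside 7.33% and 24% of all genes. In the Mll3-label library 1 of 10 was higher and 2 were lower, beside 12.6% and 23.8%. In the Mll4-label library 1 of 12 was higher and 3 were lower, beside 3.56% and 23%. These shares lie near those of all genes.

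Surface antibodies also differed along this range. The Gr1 antibody, which binds Ly6G and Ly6C, had a median of 561 counts per barcode in the first and 2396 in the last group of control. It had 1037 and 2820 in the Mll3-label library and 573.5 and 1233 in the Mll4-label library. Neutrophil barcodes below the threshold had 472, 491 and 527 Gr1 counts, and other barcodes 26, 30 and 47. Gr1 was thus highest in members with the most Retnlg and Mmp8, and in that group lowest in the Mll4-label library, as Ly6g RNA was. CD117 ran the other way, with medians of 48 and 30 in control, 50 and 29 in the Mll3-label and 67 and 36 in the Mll4-label library. Other barcodes had CD117 medians of 207, 252 and 229, and Kit RNA was at 42.6, 39.3 and 59.0 CPM in members. CD48, an adhesion protein of blood progenitors and leukocytes, went from 132 to 81, from 159 to 62 and from 97.5 to 61. CD11b, the integrin alpha chain of myeloid cells, went from 293 to 198 and from 311 to 166 in the first 2 libraries and stood at 408 and 428 in the Mll4-label library. Its gene Itgam was at 473 and 913, 413 and 859, and 428 and 947 CPM, so that RNA and antibody did not run in parallel for CD11b. The antibody counts are not scaled for depth, and the other 9 surface antibodies had medians between 1 and 163 over all members.

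**Figure D4:**
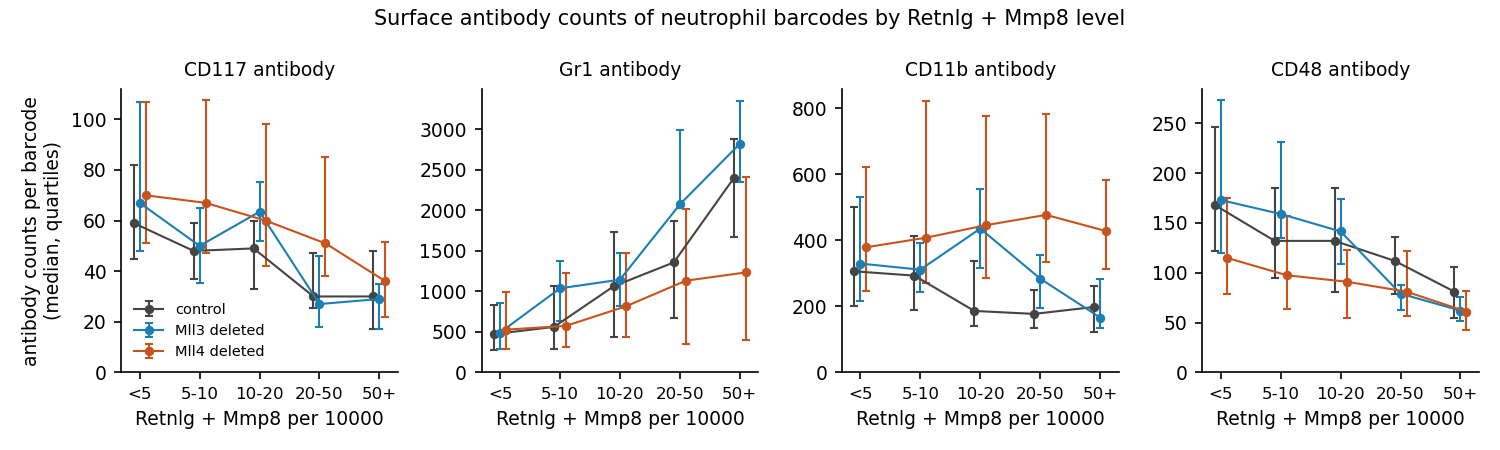
Median antibody counts per barcode with quartiles (y axis, each antibody on its own scale) of neutrophil barcodes below the threshold and of members by Retnlg and Mmp8 per 10000 (x axis), 1 line per library. Gr1 is highest in the last group (2396, 2820 and 1233 counts), and CD117 is lower there (30, 29 and 36 counts) than below the threshold (59, 67 and 70 counts).

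Set against neutrophil barcodes of the same library below the threshold (1903, 1246 and 2501 barcodes), members had less RNA of the primary granule. These ratios follow in part from the rule and carry no test. Elane, neutrophil elastase, was at 146 CPM in members and 921 CPM below the threshold in control. It was at 164 and 1691 CPM in the Mll3-label library, and at 127 and 582 CPM in the Mll4-label library. Of 12 primary granule genes, 6, 7 and 8 were lower by at least 2-fold, against 5.27%, 25.5% and 4.57% of all genes. Prtn3, proteinase 3, had log2 ratios of -1.98, -2.76 and -1.86, and Mpo, myeloperoxidase, of -1.20, -1.98 and -1.48. Late maturation genes were higher by 2-fold for 13 of 21, 18 of 21 and 10 of 22, against 2.99%, 10.6% and 1.46% of all genes. Mmp9 had log2 ratios of 3.69, 5.28 and 3.11, and Cxcr2 of 2.17, 3.73 and 2.62.

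Within the members, primary granule genes as a list had no common direction across the libraries where Retnlg and Mmp8 were higher. Elane stood at 159 CPM in the first and 160 CPM in the last group of control, at 111 and 237 CPM in the Mll3-label and at 97.7 and 175 CPM in the Mll4-label library. Mpo was at 235 and 165, 118 and 328, and 180 and 263 CPM. In CPM, Elane and Mpo were higher in the last group of the Mll4-label library, and on few UMIs in that of the Mll3-label library. Of the primary granule genes compared, none of 9 was higher and 1 lower by 2-fold in control (median log2 -0.10), with 3 above 0. In the Mll3-label library 4 of 5 were higher and none lower (median 1.38), where 12.6% of all genes were higher. In the Mll4-label library none of 8 passed in either direction (median 0.30), with 6 above 0. The 4 genes past 2-fold in the Mll3-label library were Elane, Prtn3, Mpo and Ctsg, which are also the granulocyte progenitor markers compared there. Each of them reached 20 counts in the last group alone, so that count carries no weight. Below that minimum Ms4a3 went from 133 to 79.1 CPM and Prss57 from 66.4 CPM to no UMI in the same library. In CPM, Elane, Prtn3, Mpo and Ctsg, early genes of the series, stood higher in its last group, and Ms4a3 and Prss57 lower. All 6 rest on few UMIs there, and no direction is read from them. The first 4 remained below their levels in neutrophil barcodes under the threshold, where Elane was at 1691 and Mpo at 778 CPM.

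Between members of the Mll3-label and the control library, fewer genes were called higher than lower, a split that depends on the count minimum. Of 5476 genes with at least 20 counts in either, 88 (1.61%) were higher and 396 (7.23%) lower, 8.84% in all, by at least 2-fold in CPM with 1 CPM added. The 33 members gave 280054 UMIs against 1267057 in control, which limits this comparison. A gene of low level could reach 20 counts through control alone, so the split is a description. With no minimum, 1494 of 12034 genes were higher and 1930 lower. With at least 100 counts, 22 of 1510 genes (1.46%) were past 2-fold, 4 higher and 18 lower. With the rule applied after thinning every barcode to 2000 UMIs, which takes 118 Mll3-label and 349 control barcodes, 29 of the 484 were still past it. No gene of the late maturation list was past 2-fold in either direction among 19 compared. The list's median log2 ratio was 0.43, with 16 of 19 above 0, beside -0.02 for all genes. Of the 20 G2/M genes none passed, with a median of -0.54 and 19 at or below 0. The Mll3-label members held a larger part at 50 or more. In the members at 5 to under 20 alone, 595 of 4820 genes (12.3%) were past 2-fold.

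Mmp8 itself was 1.12 higher on the log2 scale (0.96 to 1.28), which the rule selects for. Ceacam10, a carcinoembryonic antigen family protein, stood at 42.6 CPM in control members and at 118 CPM in Mll3-label members. Junb, an AP-1 transcription factor, was at 25.3 and 71.4 CPM. Both were higher in the Mll3-label library and, at log2 -0.08 and 0.29, near control in the neutrophil barcodes below the threshold. Members at 50 or more were 45.5% of Mll3-label and 25.4% of control members, and the part of that mix in both ratios was not tested. Olfm4, a glycoprotein of a subset of neutrophils, was at 176 and 49.99 CPM. Cxcr4, the receptor that holds neutrophils in the marrow, was at 114 and 49.99 CPM, a log2 ratio of -1.18 (-2.10 to -0.40), with -1.01 below the threshold and -0.85 in other barcodes. Vcam1, an adhesion molecule, had 67 UMIs (52.9 CPM) in control and 2 (7.14 CPM) in Mll3-label members. Cxcr4 was lower in all 3 kinds of barcode of that library. Vcam1 was lower in the members mainly, on 2 UMIs in those of the Mll3-label library.

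Several of the genes named by rank in this comparison rest on 1 or 2 barcodes. Pf4, a platelet chemokine, had 188 UMIs in Mll3-label members, of which 182 came from 1 barcode. Apoe had 119 UMIs, with 96 in 1 barcode. Stfa1, a stefin, had no UMI there and 170 in control, at least 12.5-fold lower against a floor of 3 counts, but 2 control barcodes gave 82 and 43 of the 170. Gm42418, a noncoding RNA gene that overlaps ribosomal RNA sequence, stood at 12506 CPM in control members and at 23674 CPM in Mll3-label members. Gm10076 and Hist1h2ap were higher in the Mll3-label library in members (log2 1.75 and 1.51), in neutrophil barcodes below the threshold (2.13 and 1.58) and in other barcodes (1.55 and 1.73). For Hist1h2ap the members at 20 or more gave a log2 ratio of -0.54.

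Between members of the Mll4-label and the control library, 310 of 6985 genes (4.44%) were higher and 426 (6.1%) lower by at least 2-fold, 10.5% in all. That split depends on scaling. The median ratio of well-counted genes was -0.13 on the log2 scale, and with ratios centred on it 443 genes were higher and 310 lower. With TMM scaling the counts were 408 and 331, and without the 8 rule genes in the totals 426 and 353. The rule genes made up 34.5% of control and 38.7% of Mll4-label member UMIs, of which S100a8, a subunit of calprotectin, was at 85143 and 132288 CPM. After thinning every barcode to 2000 UMIs before the rule, 389 of the 736 genes were still past 2-fold. With predicted doublets removed, 350 of 6465 genes were higher and 269 lower. At 20 or more Retnlg and Mmp8 per 10000, 382 of 3581 were higher and 152 lower.

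The lists are read beside the 4.44% of all genes higher and 6.1% lower. Of 21 late maturation genes 1 was higher and 4 were lower, with a median log2 ratio of -0.14, about the size of the scaling shift. The 12 secondary granule genes had 1 higher and none lower, with a median of 0.29. Of 11 primary granule genes 1 was higher and 2 lower (median -0.20). The 6 granulocyte progenitor markers, which are part of that list, had 1 lower and none higher, with a median of -0.61 and 1 above 0. Of 22 receptor and adhesion genes 2 were higher and 1 lower (median -0.04, a sign that scaling turns), and of 16 transcription factors 2 and 0 (median 0.15). Of 19 S phase genes 2 were higher (median 0.43), and of 20 G2/M genes 1 was lower (median -0.26). The median of all genes was 0.00.

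Single genes of these lists differed more. Hdc, which makes histamine, was at 163 CPM in control, 221 in Mll3-label and 30.7 in Mll4-label members. The log2 ratio of Mll4-label to control was -2.37 (-2.80 to -2.02), with both hashtags (57.9 and 23.8 CPM) below both of control (181 and 144 CPM). Hdc was lower below the threshold as well (log2 -1.19), and higher in other barcodes (1.04). Mmp25, a membrane-bound metalloproteinase of neutrophils, was at 138, 171 and 52.9 CPM. Lrg1, a secreted glycoprotein stored in neutrophil granules, was at 360, 354 and 148 CPM. Itgal, the alpha chain of LFA-1, was at 67.9, 78.6 and 21.7 CPM. All 4 were within 2-fold of control in the Mll3-label library and lower in the Mll4-label library. Ccl6, a chemokine, was lower too, but 5 control barcodes carried all 54 of its UMIs.

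Other neutrophil genes were higher in the Mll4-label library. Wfdc21 was at 3105 CPM in control, 3299 in Mll3-label and 6888 in Mll4-label members. Fpr2, a formyl peptide receptor, was at 212, 207 and 487 CPM, a log2 ratio of 1.19 (1.01 to 1.39) to control. Gfi1, a repressor needed for granulocyte development, was at 30.0, 17.9 and 80.7 CPM. All 3 were higher below the threshold as well, with log2 ratios of 1.09, 1.57 and 1.36. Tlr2 and Tlr4, receptors for bacterial products, were at 10.3 and 22.5 CPM and at 6.31 and 16.8 CPM in control and Mll4-label members, on 13 or fewer control UMIs each. Mxd1 was at 284 and 475 CPM and Itgb2, the shared beta chain of the leukocyte integrins, at 363 and 585 CPM, both under 2-fold. Cebpb was at 215 and 117 CPM and Ly6g at 399 and 239 CPM, lower but also under 2-fold.

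Immediate early genes were split. Fos stood at 61.6 CPM in control members and at 28.3 CPM in Mll4-label members, and Dusp1, a phosphatase induced with it, at 49.7 and 10.7 CPM. Jun, the partner of Fos in AP-1, was at 46.6 and 143 CPM. Jun was thus higher and Fos and Dusp1 lower in the Mll4-label library. In Hashtag1 members of that library Jun was at 57.9 CPM and in Hashtag2 members at 167 CPM, against 50.5 and 43.5 CPM in control. Of the 10 genes of this list compared, 1 was higher and 3 were lower (median log2 -0.31), beside 4.44% and 6.1% of all genes.

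Cd3d, the delta chain of the T cell receptor complex, had the lowest ratio of all genes ranked. It was at 264 CPM in control, 154 in Mll3-label and 2.46 in Mll4-label members, a log2 ratio of -6.26 (-8.20 to -5.61) for the Mll4-label library. A Cd3d UMI was found in 110 of 130, 21 of 33 and 6 of 505 members. Cd3e, the epsilon chain, had no UMI in members of any library, and Cd3g, the gamma chain, had 4 UMIs in control members and none in the other two. Below the threshold a Cd3d UMI was found in 69.2%, 46.9% and 1.72% of neutrophil barcodes at median depths of 14013, 14694 and 5131 UMIs. In other barcodes it was found in 1.80%, 0.909% and 0.643%, at median depths of 18166, 19388 and 5746 UMIs. In the control and Mll3-label libraries Cd3d was thus found in many neutrophil barcodes and few others. In control members it was at 201 CPM in the first and 484 CPM in the last Retnlg and Mmp8 group. In both hashtags of the Mll4-label library it was low (5.43 and 2.16 CPM, against 295 and 232 CPM in control).

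Hacd4, an enzyme of fatty acid elongation, was at 110 CPM in control, 114 in Mll3-label and 16.8 in Mll4-label members, a log2 ratio of -2.64 (-3.25 to -2.20). It was lower below the threshold by nearly as much (-2.56) and little changed in other barcodes (-0.37). Timp2, an inhibitor of metalloproteinases, was at 56.0, 71.4 and 11.1 CPM. Hist1h2bl, an H2B histone gene, was at 37.9, 21.4 and 1.64 CPM and was lower in all other barcodes too (-2.44). The Hist1h2bl difference was thus seen across the library. For Hacd4 and Cd3d the other barcodes went the same way by less. Cd3d was at -0.58 there (-1.52 to -0.31), where few barcodes of any library held a UMI of it. The lower ranks also held Pf4, Car1, Car2, Prdx2 and Ermap. These are platelet and red cell genes, and 1 control barcode gave 253 of the 288 Car1 UMIs, 73 of 107 for Car2, 68 of 137 for Prdx2 and 19 of 22 for Ermap, while 2 gave 70 and 53 of 132 for Pf4.

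Among the highest ranks, 1700006J14Rik, a noncoding RNA gene, stood at 3.16 CPM in control members and at 50.8 CPM in Mll4-label members. Pttg1, the securin that holds sister chromatids together, was at 11.8, 67.8 and 94.7 CPM in the 3 libraries. Gm10076 was at 72.6, 246 and 425 CPM and Hist1h2ap, an H2A histone gene, at 299, 853 and 1195 CPM. Pttg1, Gm10076 and Hist1h2ap were lowest in control in each kind of barcode, with other-barcode log2 ratios of 1.58, 2.82 and 2.16 for the Mll4-label library. Basp1, a membrane-associated signalling protein, was at 11.05 and 76.6 CPM in control and Mll4-label members. Serpinb2, a serine protease inhibitor, was at 3.95 and 30.3 CPM. Ccdc80, a secreted matrix protein, was at 4.74 and 33.2 CPM. These last 3 were higher in both hashtags of the Mll4-label library than in either of control. Tceanc2, Gm49980 and Zdhhc2 had no UMI in control members and 32, 30 and 23 in the Mll4-label library, at least 5.54-fold, 5.19-fold and 3.98-fold higher against a floor of 3 counts over the control members.

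Thbs1, thrombospondin 1, was named by rank in the other comparison. It was at 66.3 CPM in control, 189 in Mll3-label and 218 in Mll4-label members. One barcode gave 24 of its 53 UMIs in the Mll3-label library, while 256 of 505 members had a UMI in the Mll4-label library. Below the threshold it was at 1.27, 0.540 and 53.3 CPM. In members at 5 to under 10 it was at 8.50, 7.38 and 103 CPM, and at 50 or more at 334, 531 and 464 CPM. Thbs1 was therefore near control in the last group and higher before it in the Mll4-label library.

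**Figure D5:**
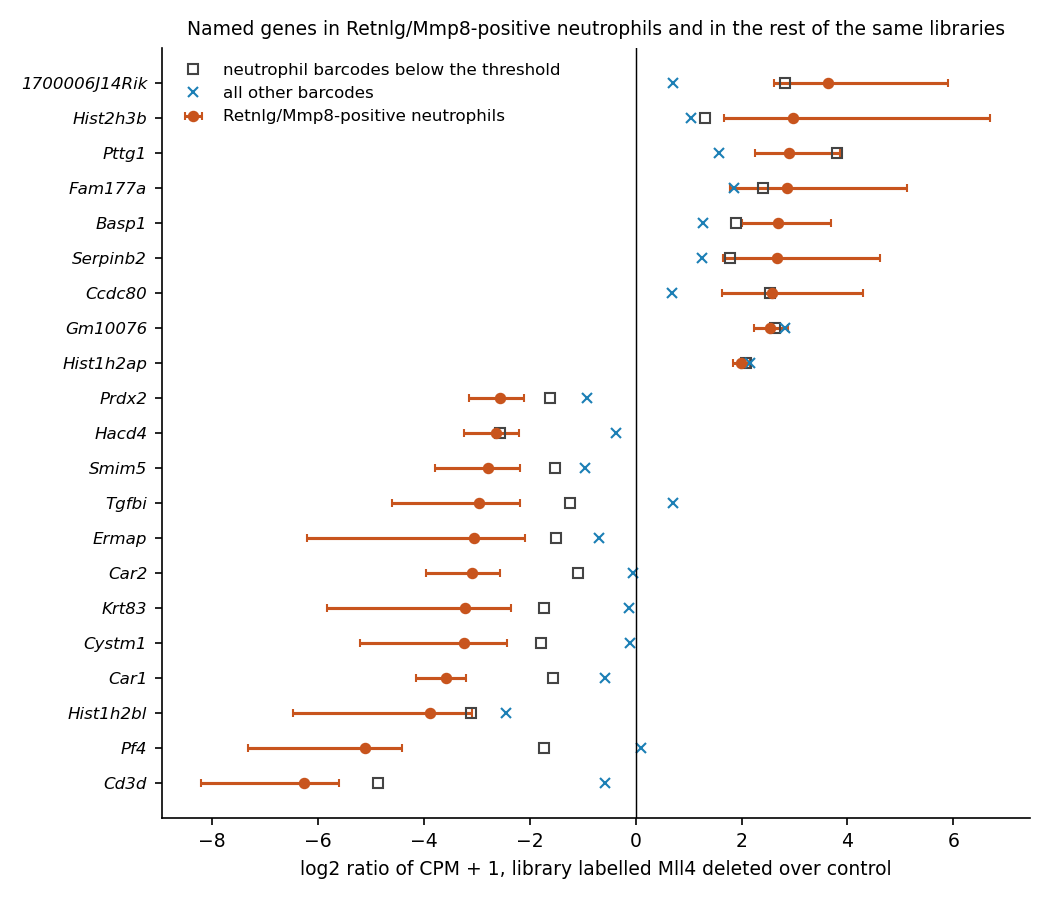
Log2 ratio of CPM + 1, Mll4-label over control library, for the 21 genes named by rank with UMIs in both libraries: members with 95% counting interval of the CPM ratio (circles), neutrophil barcodes below the threshold (squares) and other barcodes (crosses). Cd3d is lowest at -6.26 and 1700006J14Rik highest at 3.64; 3 genes without a control UMI are left out.

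Markers of other cells were low in members, with exceptions. Monocyte markers summed to 1275, 1118 and 804 CPM, of which Ly6c2, which neutrophils also express, was 1227, 1036 and 745 CPM. MHC class II genes summed to 11.1, 28.6 and 37.7 CPM, with 5, 3 and 1 of the 7 without a UMI. B cell markers summed to 63.1, 39.3 and 62.7 CPM, basophil and mast cell markers to 5.52, 35.7 and 24.2 CPM, and stem cell markers to 67.9, 121 and 77.0 CPM. T and NK markers summed to 267, 157 and 4.10 CPM, of which Cd3d was 264, 154 and 2.46 CPM. Erythroid markers summed to 399, 99.98 and 34.4 CPM and megakaryocyte markers to 118, 725 and 5.33 CPM, in the few barcodes named above. The predicted doublet share was 3.85%, 6.06% and 7.92% of members. With predicted doublets removed, 292 of the 366 genes past 2-fold that could still be compared held for the Mll3-label library, and 469 of 616 for the Mll4-label library.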

How the data were processed

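Per the submitters' processing notes, the authors made UMI count matrices with Cell Ranger 6.1.2 on mm10; the deposited values are whole UMI counts per gene or antibody and barcode, not normalized. Each file holds 32285 genes and 15 antibody features. Library totals were 174795636 (control), 161119914 (labelled Mll3 deleted), 36413830 (labelled Mll4 deleted) and 86721050 (both) gene UMIs.

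Members were found by the rule given in the report, and their counts were summed per library and expressed as CPM (counts per 1000000 gene UMIs). Ratios are log2 of CPM with a pseudocount of 1, over genes with at least 20 counts in either library; a gene was called at 2-fold. Intervals of gene ratios are exact 95% intervals of the CPM ratio without pseudocount, so for low genes they can miss the printed ratio. Poisson intervals are given for counts and Clopper-Pearson intervals for shares. Intervals of ratios of shares combine the Clopper-Pearson limits of both shares and are approximate. UMI-derived intervals cover counting error only. A barcode was assigned to a hashtag holding at least 80% of its hashtag counts. Doublets were predicted with Scrublet in scanpy 1.11.5 and kept in the values reported. Python 3.11.15, scipy 1.17.1 and edgeR 4.0.16 (TMM factors only) were used, and the contrast code was tested on simulated data. GENCODE M21 names matched 32158 gene IDs.

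Genes named were those of 23 lists (284 genes, 1 not found), the rule genes, and in each comparison with control the 12 highest and 12 lowest genes by the interval bound nearest 0 (8 on each side within libraries). Xist, Y-linked, mitochondrial and haemoglobin genes were left out of that ranking, and results that need a withheld gene are not reported here. Thbs1 in the comparison of the Mll4-label library was chosen after its values were seen, and so were the genes shown by promoter. The members and lists were chosen with earlier results of these data known, and alternatives by hashtag, by level and by thinning with a higher threshold were added after seeing the data.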

Additional observations from a re-analysis of the deposited data

How the results depend on the processing

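The log2 ratio of member shares to control kept its sign under every alternative run. For the Mll3-label library it was -0.84 at a threshold of 20 per 10000, -0.97 with that threshold after thinning to 2000 UMIs, -3.20 in Hashtag1 and -0.80 in Hashtag2 barcodes. For the Mll4-label library it was 1.67 after thinning alone, 1.66 in Hashtag1 and 2.72 in Hashtag2 barcodes. After thinning, 1 UMI reaches the threshold of 5, so little can be read from that value. The cause of these shifts was not tested.

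Counts of genes past 2-fold depended on the count minimum by construction. For the Mll3-label library, beside 484 of 5476 (8.84%), they were 22 of 1510 (1.46%) with at least 100 counts and 3424 of 12034 (28.5%) with no minimum. Of the same 5476 genes, 305 (5.57%) passed with a pseudocount of 5 CPM and 774 (14.1%) from the mean of per-cell CPM. The counts were 169 of 1661 genes (10.2%) at a threshold of 20, 205 of 8341 (2.46%) after thinning and 203 of 2125 (9.55%) with both. In Hashtag1 barcodes, where 6 members remain, 856 of 3452 genes (24.8%) passed. For the Mll4-label library, beside 736 of 6985 (10.5%), they were 216 of 2793 (7.73%) with at least 100 counts and 2064 of 12994 (15.9%) with no minimum. With a pseudocount of 5 CPM 490 of 6985 (7.02%) passed, and in Hashtag1 barcodes 472 of 3762 (12.5%). For that library 620 of the 736 calls held after centring on the median, 389 after thinning, 469 of the 616 comparable ones after removing predicted doublets and 157 of 265 at a threshold of 20. For the Mll3-label library 29 of its 484 held after thinning, where 378 kept their sign, and 23 of the 37 comparable ones at a threshold of 20.

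Signs turned for few named genes. In the Mll3-label library Car1 was 0.20 without predicted doublets and 0.42 at a threshold of 20. Hist1h2ap was -0.54 at a threshold of 20 and -0.39 with thinning as well. Uap1 was 0.19 after thinning. Pf4 was -0.37 in Hashtag1 barcodes and -3.36 at a threshold of 20 after thinning. In Hashtag1 barcodes Ctla2a was -4.07, Thbs1 -5.64 and Adgrg1 -0.069, and against barcodes below the threshold Adam8 was -1.15 and Timp2 -3.22. Of these 5 genes, Adgrg1 had 1 UMI in the 6 Hashtag1 members and the others had none, so no direction is read from them. Ifi27l2a was -0.089 in members at 5 to under 20. In the Mll4-label library Ermap was 0.15 in Hashtag1 barcodes. The cause was not tested. Of the other values recomputed for genes named by rank between libraries, 592 stayed within their counting interval and 114 moved with the same sign.

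No paired analysis was possible because each group has 1 library. With 280054 member UMIs in the Mll3-label library, the floor of 3 counts is 10.7 CPM there, against 2.37 CPM in control, so genes under that level could not be compared.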
